A study of Mus musculus with 4 samples.

Results

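The mitochondrial solute carrier family 25 (Slc25) was examined in primary hepatocytes, the liver's metabolic cells, of Prom1-deficient (KO) and wild-type (WT) mice. Its members were taken by name, as protein-coding genes of GENCODE M21 whose symbol is Slc25a followed by a number, and 47 of the 22079 genes in the deposited table met this rule. The KO group (genotype Prom1-/-) and the WT group each held 2 libraries, labelled as biological replicates from age-matched C57BL/6 males of 8 weeks. Prom1 encodes a membrane glycoprotein of plasma-membrane protrusions, and the labels do not say how the allele was made or whether a library came from 1 animal. All cells were attached for 4 hours in medium with 10% serum and 10 nM dexamethasone and then kept overnight without serum.

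Carriers of this family sit mostly in the inner mitochondrial membrane, where they exchange nucleotides, amino acids, carboxylates, cofactors and ions between the cytosol and the matrix. In liver they serve the urea cycle, the malate-aspartate shuttle, gluconeogenesis, citrate export for fat synthesis and the entry of acylcarnitines for oxidation. Each carrier is made in the cytosol and inserted through a dedicated import pathway.

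The values are FPKM, mapped fragments divided by transcript length and sequencing depth, so that levels of different genes can be set side by side. The libraries were roughly estimated from the lowest steps of the values to hold 16600000 (KO 1), 15400000 (KO 2), 17700000 (WT 1) and 15900000 (WT 2) fragments. Only steps within a window set beforehand were used, which bounds the estimate, so it cannot show whether the libraries differed in depth. Prom1 had 0 FPKM in KO 1 and 0.0458 FPKM in KO 2, against 0.571 FPKM in WT 1 and 1.22 FPKM in WT 2. Markers of hepatocytes were abundant in all libraries, with a summed level of 22707 to 25830 FPKM over 12 genes other than Alb in KO and 23693 to 28071 FPKM in WT. An abundant gene was listed at 0 in 1 library: Alb stood at 25551 FPKM in KO 1 and 32670 FPKM in KO 2 against 27103 FPKM in WT 1 and 0 in WT 2. The reason was not tested, so a gene with the value 0 is described as listed at 0.

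Of the 47 members, 37 averaged 1 FPKM or more and were tested, 8 were listed above 0 in at least 1 library but under that mean, and 2 were listed at 0 throughout. A few carriers made up most of the family's transcripts. Slc25a39, a carrier of glutathione, stood at 399 and 395 FPKM in KO 1 and KO 2 and at 380 and 355 FPKM in WT 1 and WT 2. Slc25a5, the ADP/ATP carrier ANT2 that exports ATP made by respiration, stood at 378 and 343 FPKM in KO 1 and KO 2 and at 370 and 348 FPKM in WT 1 and WT 2. GENCODE M21 also lists a pseudogene copy of Slc25a5, and whether fragments were shared with it was not tested, which bears on each value of this gene and on its ratio to Slc25a4. Slc25a3, which imports phosphate for ATP synthesis and also carries copper, stood at 292 and 302 FPKM in KO 1 and KO 2 and at 294 and 292 FPKM in WT 1 and WT 2. These 3 genes held 63.4% and 62.1% of the summed FPKM of the 47 members in KO 1 and KO 2, and 62.4% and 60.6% in WT 1 and WT 2. The family's sum was 1686 and 1673 FPKM in KO 1 and KO 2 and 1672 and 1641 FPKM in WT 1 and WT 2, so its total level was nearly the same in all 4 libraries. The next gene in the order, the citrate carrier Slc25a1, averaged 74.8 FPKM over the 4 libraries, well below the leading 3.

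**Figure D1:**
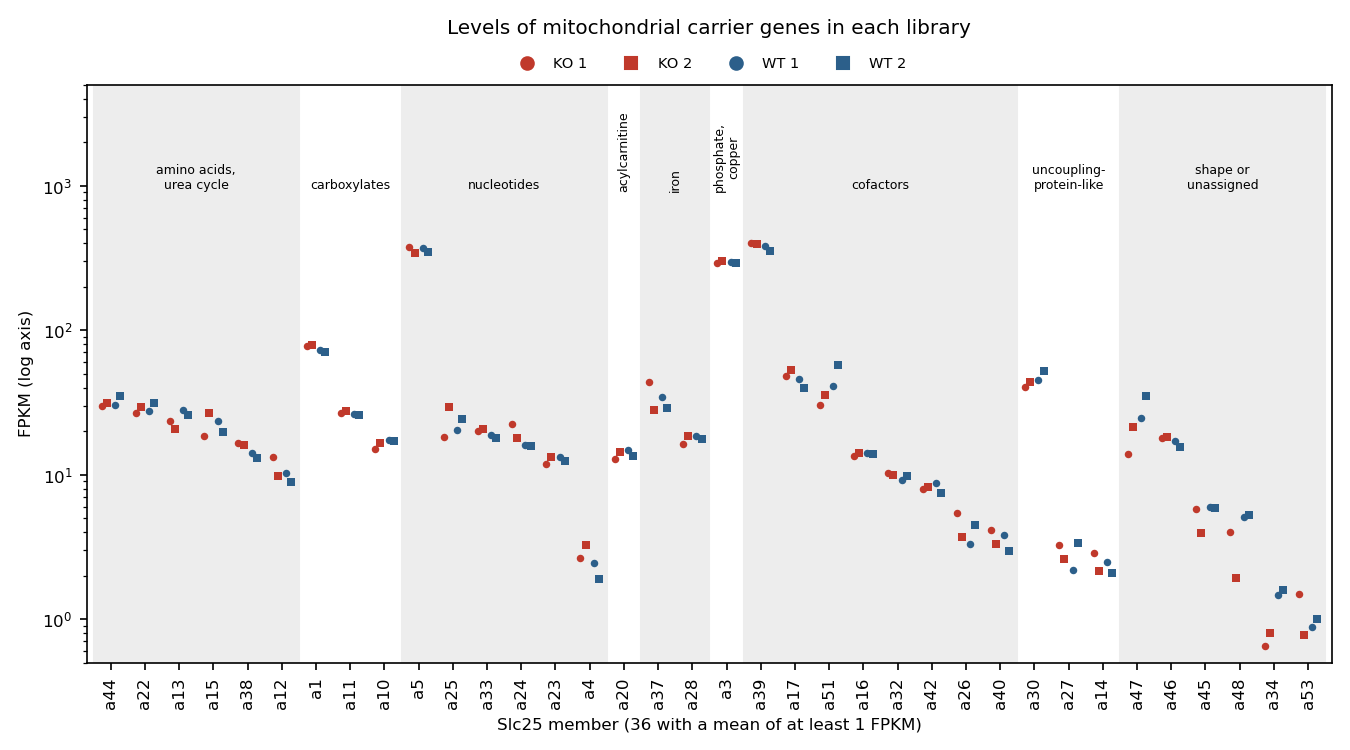
FPKM on a log axis of 36 of the 37 tested members in each library, grouped by substrate, with KO 1 and KO 2 in red left of WT 1 and WT 2 in blue. Slc25a39, Slc25a5 and Slc25a3 lie at 292 FPKM or above in every library, and Slc25a34, Slc25a47, Slc25a48 and Slc25a51 lie lower in both KO libraries than in both WT libraries.

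The comparison of KO with WT asks whether loss of Prom1 goes with other levels of these carriers. No member was called: 0 of 37, and 0 of all 10407 genes tested (0%), reached an adjusted p under 0.05 in limma with Benjamini-Hochberg adjustment, and a member's lowest adjusted p was 0.610. At an unadjusted limma p under 0.05 stood 6 members, 16.2% of those tested, against 7.29% of all genes. Of these 6, Slc25a47, Slc25a48, Slc25a51, Slc25a34 and Slc25a13 were lower in KO, against a background of 4.19% of all genes lower at that p, and Slc25a38 was higher, against 3.10%. The count was 0 without WT 2 (3.06% of all genes), 2 without WT 1 (7.56%), 4 without KO 1 (7.82%) and 5 without KO 2 (11.8%), where the lone library left in a genotype is assumed to vary like the others. Without a filter on low values it was 3 of 45 members fitted, against 6.55% of all genes. Slc25a34, among the 6, averaged 0.728 FPKM in KO and 1.52 FPKM in WT, so it was tested only through its WT level. With 2 libraries a genotype, the smallest p an exact permutation test allows is 0.333. P-values here set the difference between genotypes against the spread between libraries of the same genotype, of which each had only 2. That spread was pooled over both genotypes and moderated by limma with a variance trend over all genes tested.

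Across the tested members, the differences were of the size seen for other genes. The log2(FPKM + 1) difference, KO minus WT, was under 0.2 in size for 26 of 37 members (70.3%), against 72.3% of all genes, and the median size was 0.12 for both. The median signed difference was 0.05, and 16 members (43.2%) were lower in KO, against 50.3% of all genes. Both KO libraries lay apart from both WT libraries for 18 members (48.6%), against 38.1% of all genes; 8 lay below (background 19.8%) and 10 above (background 18.3%). A difference of at least 0.5 was found for 4 members (10.8%), against 4.13% of all genes. All 4, Slc25a47, Slc25a48, Slc25a51 and Slc25a34, were lower in KO, though Slc25a34 passed the filter only through its WT level.

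**Figure D2:**
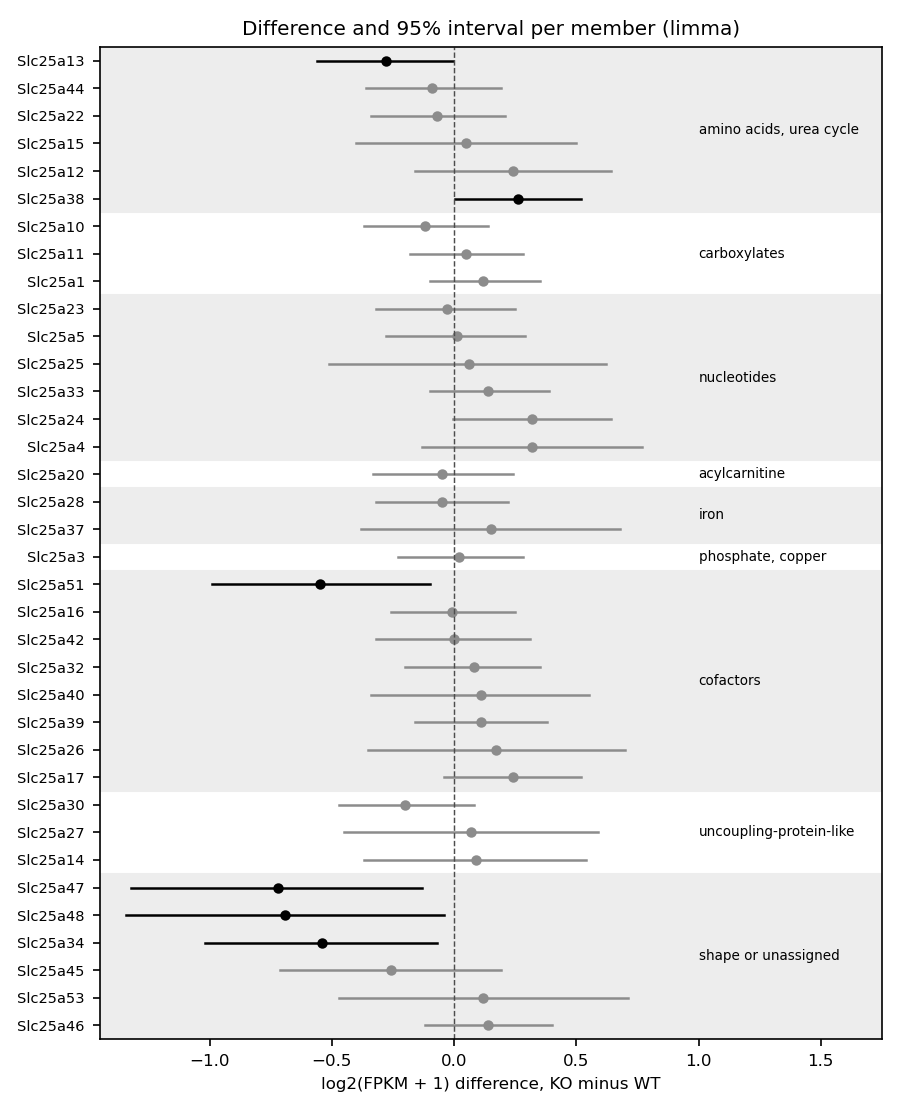
Log2(FPKM + 1) difference, KO minus WT, of 36 of the 37 tested members with the 95% interval from limma, ordered within substrate group. Black marks the 6 members with an unadjusted p under 0.05, and the intervals of the 4 members below -0.5 do not reach 0, before any adjustment for the number of genes tested.

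Promoter sequences are shown for the members with an unadjusted p under 0.05 that have an entry in the RefSeq promoter table, 1 window of 250 bases before to 50 bases after the start of each, on build GRCm38.p6, to the strand of the gene. Capitals mark matches, on either strand, to ACGTG (the core of the hypoxia response element), TGACG (the core of the cAMP response element), CCAAT (the CCAAT box), GGGCGG (the GC box), AGGTCA (a nuclear receptor half-site), TGTTCT (a glucocorticoid receptor half-site) and TATAAA (the TATA box). The first pair of these share letters and can overlap. The windows lie at chr12:108850879-108851178 (plus strand), chr13:56438105-56438404 (plus), chr4:141623785-141624084 (minus), chr6:6217124-6217423 (minus) and chr9:120110132-120110431 (plus).
Slc25a47: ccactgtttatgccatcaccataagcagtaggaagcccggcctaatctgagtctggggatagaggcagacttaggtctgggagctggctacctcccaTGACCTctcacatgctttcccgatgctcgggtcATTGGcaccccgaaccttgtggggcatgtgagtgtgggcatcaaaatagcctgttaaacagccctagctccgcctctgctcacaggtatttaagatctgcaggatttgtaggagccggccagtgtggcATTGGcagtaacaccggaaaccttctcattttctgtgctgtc
Slc25a48: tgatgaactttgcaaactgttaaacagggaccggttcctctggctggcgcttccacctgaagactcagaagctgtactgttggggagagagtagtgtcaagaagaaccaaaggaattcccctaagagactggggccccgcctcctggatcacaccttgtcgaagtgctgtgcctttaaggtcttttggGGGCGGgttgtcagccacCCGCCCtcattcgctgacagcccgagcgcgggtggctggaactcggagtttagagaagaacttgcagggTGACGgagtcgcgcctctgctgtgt
Slc25a34: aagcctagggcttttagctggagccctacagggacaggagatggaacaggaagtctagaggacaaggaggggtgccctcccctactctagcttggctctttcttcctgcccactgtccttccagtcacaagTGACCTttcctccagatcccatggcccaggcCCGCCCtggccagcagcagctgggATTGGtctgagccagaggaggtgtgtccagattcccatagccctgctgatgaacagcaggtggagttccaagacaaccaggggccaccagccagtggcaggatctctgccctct
Slc25a13: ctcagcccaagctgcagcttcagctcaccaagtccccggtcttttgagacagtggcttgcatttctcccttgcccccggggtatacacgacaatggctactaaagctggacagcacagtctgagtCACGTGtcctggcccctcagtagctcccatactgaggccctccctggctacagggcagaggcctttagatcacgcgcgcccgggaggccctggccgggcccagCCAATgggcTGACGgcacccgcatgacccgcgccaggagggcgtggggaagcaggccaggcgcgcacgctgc
Slc25a38: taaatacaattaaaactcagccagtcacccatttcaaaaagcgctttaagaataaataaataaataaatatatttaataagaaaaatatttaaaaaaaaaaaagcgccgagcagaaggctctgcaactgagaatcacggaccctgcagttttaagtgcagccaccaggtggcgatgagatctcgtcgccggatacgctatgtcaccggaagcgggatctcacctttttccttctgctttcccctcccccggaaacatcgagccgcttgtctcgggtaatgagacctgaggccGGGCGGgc
The 5 windows shared no single motif. ACGTG was found in the Slc25a13 window only, within CACGTG, which reads the same on both strands and so holds ACGTG on each. ACGTG is present in 19.6% of all 32851 RefSeq windows of this length. AGGTCA was found in the windows of Slc25a47 and Slc25a34 (16.3% of all windows), TGACG in those of Slc25a48 and Slc25a13 (20.8%), and CCAAT in those of Slc25a47, Slc25a34 and Slc25a13 (37.4%). GGGCGG was found in those of Slc25a48, Slc25a34 and Slc25a38 (35.7%), and TGTTCT (19.0%) and TATAAA (13.6%) in none. Over 46 windows of 36 members, GGGCGG was found in 82.6% and TATAAA in 4.35%, and the median GC content was 59.3%, against 52.7% for all windows. A match is a run of letters and not a measured binding site.

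Carriers whose substrate is unassigned, or that shape the organelle, held 3 of these 4 members. Slc25a47 is made mainly in liver. It stood at 13.9 and 21.4 FPKM in KO 1 and KO 2 and at 24.5 and 34.7 FPKM in WT 1 and WT 2. The genotypes did not overlap, though KO 2 and WT 1 lay close together. Its log2 difference was -0.72 (SE 0.24, 95% interval -1.32 to -0.13; limma, unadjusted p of 0.0249, adjusted p = 0.614). It was -0.43 without KO 1, -0.48 without WT 2 and -1.02 without KO 2. Slc25a48, which has been linked to choline import, stood at 4.00 and 1.92 FPKM in KO 1 and KO 2 and at 5.10 and 5.25 FPKM in WT 1 and WT 2. The WT libraries were nearly equal and KO 2 was the low one. Its log2 difference was -0.69 (SE 0.26, interval -1.34 to -0.04; limma, unadjusted p of 0.0400, adjusted p = 0.674), and it was -0.30 without KO 2 and -1.08 without KO 1. Slc25a34, a carrier with no settled substrate, stood at 0.654 and 0.801 FPKM in KO 1 and KO 2 and at 1.46 and 1.58 FPKM in WT 1 and WT 2. It passed the filter of a mean of 1 FPKM only through its WT level. Here the replicates lay close within each genotype, and the log2 difference of -0.54 (SE 0.19, interval -1.02 to -0.07; limma, unadjusted p of 0.0315, adjusted p = 0.643) ran from -0.61 to -0.48 with any 1 library left out and was -0.97 with a pseudocount of 0.1. At these rough depths 1 FPKM of a transcript of 2 kb would rest on 30.7 to 35.3 fragments, so this gene rests on few fragments per library.

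**Figure D3:**
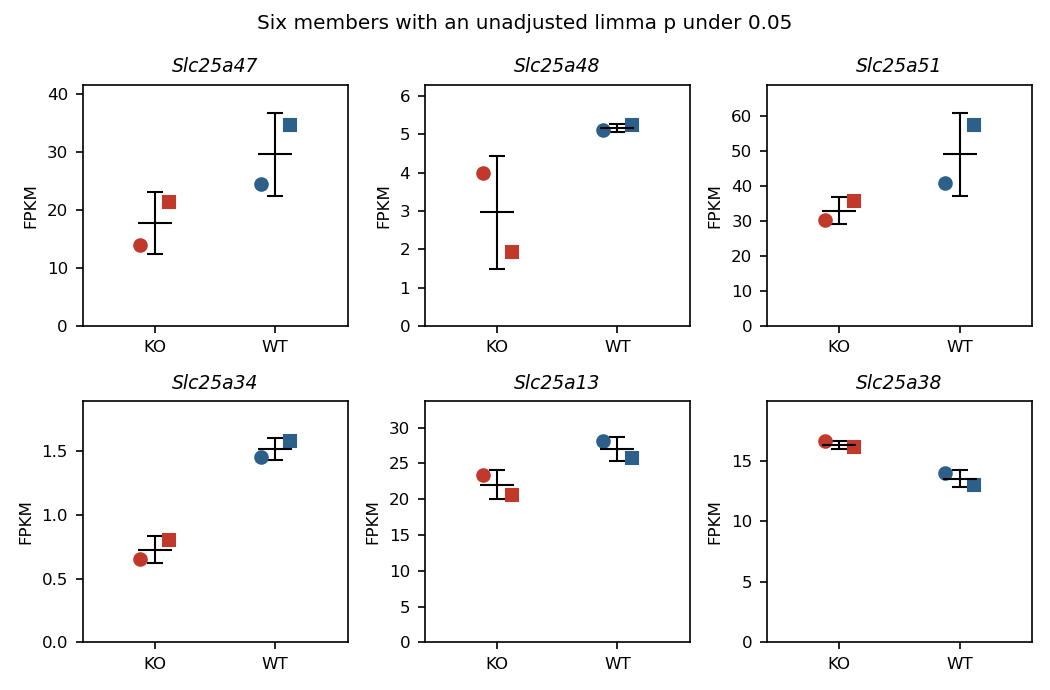
FPKM of the 6 members with an unadjusted limma p under 0.05, KO left of WT, with circles for replicate 1, squares for replicate 2, and bars for the mean and SD of 2 libraries. Slc25a34 and Slc25a38 have tight replicates, while Slc25a47 and Slc25a51 spread widely between WT 1 and WT 2 and Slc25a48 between KO 1 and KO 2.

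The remaining genes of that group were mixed. Slc25a45 averaged 4.88 ± 1.32 FPKM in KO and 5.93 ± 0.0248 FPKM in WT (SD, n = 2; log2 difference -0.26, and -0.03 without KO 2). Slc25a46, an outer-membrane member that acts in mitochondrial fission and contact, averaged 18.0 ± 0.20 FPKM in KO and 16.3 ± 1.19 FPKM in WT (SD, n = 2; log2 difference 0.14). Slc25a53 overlapped between genotypes (0.12), and Slc25a35 and Slc25a43 lay under 1 FPKM. In the group as a whole 4 of 6 tested members had both KO libraries below both WT libraries, against 19.8% of all genes. The median log2 difference was -0.40. These figures include Slc25a34, which was tested only through its WT level.

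Among carriers of cofactors, Slc25a51, which brings NAD into mitochondria, had the largest difference of the 9. It stood at 30.1 and 35.7 FPKM in KO 1 and KO 2 and at 40.7 and 57.4 FPKM in WT 1 and WT 2. All KO values lay below all WT values, and WT 2 was the highest. Its log2 difference was -0.55 (SE 0.18, interval -0.99 to -0.10; limma, unadjusted p of 0.0243, adjusted p = 0.610), and -0.30 without WT 2. Slc25a17, a peroxisomal carrier of coenzyme A and other cofactors, stood the other way, at 48.4 and 52.5 FPKM in KO 1 and KO 2 and at 45.6 and 39.4 FPKM in WT 1 and WT 2 (log2 difference 0.24, interval -0.04 to 0.52; limma, unadjusted p of 0.0772). Its value was 0.14 without WT 2. Slc25a39 differed by 0.11 (interval -0.16 to 0.38), and its relative Slc25a40 stood far lower, at 4.14 and 3.30 FPKM in KO 1 and KO 2 and at 3.83 and 2.96 FPKM in WT 1 and WT 2 (log2 difference 0.11, interval -0.34 to 0.55). The coenzyme A carriers Slc25a16 and Slc25a42 differed by less than 0.02 in size, with intervals of -0.26 to 0.25 and -0.32 to 0.31. The folate and FAD carrier Slc25a32 (0.08) and the S-adenosylmethionine carrier Slc25a26 (0.17) had unadjusted limma p-values of 0.518 and 0.447.

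Slc25a47 and Slc25a51 were lowest in KO 1 and highest in WT 2. In these libraries the median of the hepatocyte markers was also lowest and highest, though not every marker followed. The median of those 12 markers, relative to each gene's mean over the libraries, was -0.18 in KO 1 and 0.04 in KO 2, and -0.09 in WT 1 and 0.18 in WT 2. Of these 12, 9 were lower and 3 higher in KO, where 50.3% of all genes were lower, and the median log2 difference was -0.08. At an unadjusted limma p under 0.05, 1 was lower in KO, against 4.19% of all genes. This was Hnf4a, a transcription factor of hepatocytes (log2 difference -0.58, limma unadjusted p of 0.00134, adjusted p = 0.470). It stood at 64.9 and 59.5 FPKM in KO 1 and KO 2 and at 90.4 and 95.8 FPKM in WT 1 and WT 2. Apob went the other way, with both KO libraries above both WT libraries (log2 difference 0.22, limma unadjusted p of 0.121). Sinusoidal endothelial markers summed to 78.7 FPKM in KO 1 and 40.9 in KO 2, and to 56.0 and 54.1 in WT 1 and WT 2, over 9 genes. Stellate cell markers summed to 22.6 and 9.23 FPKM in KO 1 and KO 2 and to 11.6 and 11.3 FPKM in WT 1 and WT 2, over 8 genes. Dcn alone gave 17.5 and 7.02 FPKM in KO 1 and KO 2 and 8.31 and 8.39 FPKM in WT 1 and WT 2. Macrophage markers summed to 411 and 482 FPKM in KO 1 and KO 2 and to 367 and 362 FPKM in WT 1 and WT 2, over 8 genes. Most of this was Cd68, at 393 and 465 FPKM in KO 1 and KO 2 and at 357 and 351 FPKM in WT 1 and WT 2. All 6 tested macrophage markers had a higher mean in KO, with log2 differences from 0.02 (Clec4f) to 0.87 (Marco). Of them, 2 stood at an unadjusted limma p under 0.05, against 3.10% of all genes higher at that p. Cholangiocyte markers summed to 36.9 and 23.2 FPKM in KO 1 and KO 2 and to 35.5 and 32.4 FPKM in WT 1 and WT 2, over 6 genes, with Krt19 and Epcam under 1 FPKM in every library and Krt7 listed at 0 in KO. The part of other cell types in the differences of these carriers was not tested, and in bulk libraries fewer cells of a type and less RNA per cell cannot be told apart.

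Carriers of amino acids and of the urea cycle comprised 9 members, of which 6 were tested. Slc25a13 (citrin), the liver form of the aspartate/glutamate carrier, supplies aspartate to the urea cycle and works in the malate-aspartate shuttle. It stood at 23.4 and 20.6 FPKM in KO 1 and KO 2 and at 28.1 and 25.8 FPKM in WT 1 and WT 2. The genotypes did not overlap, and the log2 difference was -0.28 (SE 0.11, interval -0.56 to -0.004; limma, unadjusted p of 0.0477, adjusted p = 0.682). Its relative Slc25a12 (aralar), the form of muscle and brain, stood at 13.2 and 9.85 FPKM in KO 1 and KO 2 and at 10.2 and 8.92 FPKM in WT 1 and WT 2, with overlapping genotypes (log2 difference 0.24, interval -0.16 to 0.64; 0.04 without KO 1 and 0.43 without KO 2). The ratio of Slc25a13 to Slc25a12 was therefore lower in KO, at 1.78 and 2.09 in KO 1 and KO 2, against 2.76 and 2.89 in WT 1 and WT 2. Slc25a38, which imports the glycine used to begin heme synthesis, stood at 16.6 and 16.1 FPKM in KO 1 and KO 2 and at 14.0 and 13.0 FPKM in WT 1 and WT 2. It was the 1 higher member at an unadjusted p under 0.05 (log2 difference 0.26, SE 0.11, interval 0.0044 to 0.52; limma, unadjusted p of 0.0473, adjusted p = 0.682), and its difference kept to 0.21 to 0.31 with any 1 library left out.

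The ornithine/citrulline carrier of the urea cycle, Slc25a15, stood at 18.6 and 26.5 FPKM in KO 1 and KO 2 and at 23.3 and 19.6 FPKM in WT 1 and WT 2. KO 1 and KO 2 were the lowest and the highest library, so the replicates of KO differed more than the genotypes did (log2 difference 0.05, interval -0.40 to 0.50). The glutamate carrier Slc25a22 stood at 26.6 and 29.4 FPKM in KO 1 and KO 2 and at 27.7 and 31.1 FPKM in WT 1 and WT 2, with overlapping genotypes (log2 difference -0.07, interval -0.34 to 0.21). Its relative Slc25a18 was listed at 0 and 0.0829 FPKM in KO 1 and KO 2 and at 0.0344 and 0.0808 FPKM in WT 1 and WT 2. Slc25a44, a carrier of branched-chain amino acids and the most abundant of the group, stood at 29.8 and 31.4 FPKM in KO 1 and KO 2 and at 30.3 and 35.0 FPKM in WT 1 and WT 2 (log2 difference -0.09, interval -0.36 to 0.19). The basic amino acid carrier Slc25a29 lay under 1 FPKM in every library, with 0.852 and 0.237 FPKM in KO 1 and KO 2 and 0.807 and 0.884 FPKM in WT 1 and WT 2. The second ornithine carrier, Slc25a2, was listed above 0 in WT 1 alone.

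Carboxylate carriers varied little between genotypes. Slc25a1, which exports citrate for fatty acid and sterol synthesis, stood at 77.8 and 78.4 FPKM in KO 1 and KO 2 and at 73.2 and 70.0 FPKM in WT 1 and WT 2 (log2 difference 0.12, interval -0.10 to 0.35; limma, unadjusted p of 0.232). Both KO values lay above both WT values. The oxoglutarate/malate carrier Slc25a11 differed by 0.05 and the dicarboxylate carrier Slc25a10 by -0.12, with unadjusted limma p-values of 0.608 and 0.312. The genotypes thus lay apart for all 3 tested carboxylate carriers, 2 above and 1 below, against 38.1% of all genes. The oxodicarboxylate carrier Slc25a21 lay under 1 FPKM.

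Of 10 nucleotide carriers 6 were tested, and 5 of them had the higher mean in KO, where 5170 of all 10407 genes were higher. The median log2 difference was 0.10, and the genotypes lay apart for 3 of the 6, against 38.1% of all genes. Slc25a5 differed by 0.01 (interval -0.28 to 0.29). The ADP/ATP carrier of heart and muscle, Slc25a4 (ANT1), was scarce, at 2.63 and 3.27 FPKM in KO 1 and KO 2 and at 2.44 and 1.90 FPKM in WT 1 and WT 2 (log2 difference 0.32, interval -0.13 to 0.77; limma, unadjusted p of 0.133), and the value was 0.20 without KO 2 or without WT 2. The calcium-regulated ATP-Mg/phosphate carrier Slc25a24 stood at 22.3 and 18.0 FPKM in KO 1 and KO 2 and at 15.9 and 15.8 FPKM in WT 1 and WT 2. KO 1 was the high library (log2 difference 0.32, interval -0.0032 to 0.64; limma, unadjusted p of 0.0517, adjusted p = 0.684), and the value was 0.17 without KO 1. Its relative Slc25a23 stood at 11.8 and 13.3 FPKM in KO 1 and KO 2 and at 13.2 and 12.4 FPKM in WT 1 and WT 2 (log2 difference -0.03, interval -0.32 to 0.25). Slc25a25, the other relative, stood at 18.2 and 29.5 FPKM in KO 1 and KO 2 and at 20.3 and 24.4 FPKM in WT 1 and WT 2 (log2 difference 0.06, interval -0.51 to 0.62). Both overlapped between genotypes, and the KO libraries held the lowest and the highest value of each. The pyrimidine nucleotide carrier Slc25a33 stood at 20.1 and 20.8 FPKM in KO 1 and KO 2 and at 18.9 and 18.0 FPKM in WT 1 and WT 2, with the genotypes apart (log2 difference 0.14, interval -0.10 to 0.39). Its relative Slc25a36 was scarce, at 0.302 and 0.398 FPKM in KO 1 and KO 2 and at 0.308 and 0.622 FPKM in WT 1 and WT 2. The germ-cell ADP/ATP carrier Slc25a31 lay under 0.3 FPKM, and Slc25a41 and Slc25a54 were listed at 0.

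The carriers of acylcarnitine, phosphate and iron showed no separation of the genotypes. Slc25a20, which brings acylcarnitines in for oxidation, stood at 12.9 and 14.4 FPKM in KO 1 and KO 2 and at 14.8 and 13.5 FPKM in WT 1 and WT 2 (log2 difference -0.05, interval -0.33 to 0.24). Slc25a3 differed by 0.02 (interval -0.23 to 0.28). The iron carrier mitoferrin 1, Slc25a37, stood at 43.8 and 28.1 FPKM in KO 1 and KO 2 and at 34.5 and 28.8 FPKM in WT 1 and WT 2. Its 2 KO libraries held the highest and the lowest value, and the log2 difference was 0.15 (interval -0.38 to 0.68). Mitoferrin 2, Slc25a28, stood at 16.4 and 18.4 FPKM in KO 1 and KO 2 and at 18.4 and 17.5 FPKM in WT 1 and WT 2 (log2 difference -0.05, interval -0.32 to 0.22). Of the uncoupling-protein-like carriers, Slc25a30 stood at 40.6 and 43.6 FPKM in KO 1 and KO 2 and at 45.1 and 52.0 FPKM in WT 1 and WT 2 (log2 difference -0.20, interval -0.47 to 0.08), while Slc25a14 and Slc25a27 lay between 2.09 and 3.35 FPKM with overlapping genotypes.

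Ratios between related carriers describe the balance of forms in each library, and no test was made on them. Slc25a24 is in more than 1 of the pairs, and Slc25a36 lay under 1 FPKM in every library. Of single genes tested, 38.1% had the genotypes apart, but no such share was computed for ratios of other gene pairs. Of 7 pairs with values above 0 in every library, the genotypes lay apart for 3. Besides Slc25a13 to Slc25a12 (log2 ratio difference -0.55), these were Slc25a5 to Slc25a4, at 144 and 105 in KO 1 and KO 2 and at 151 and 183 in WT 1 and WT 2, and Slc25a23 to Slc25a24, at 0.529 and 0.740 in KO 1 and KO 2 and at 0.829 and 0.785 in WT 1 and WT 2. The ratio of Slc25a39 to Slc25a40 was 96.3 and 120 in KO 1 and KO 2 and 99.2 and 120 in WT 1 and WT 2, the same range in both genotypes.

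**Figure D4:**
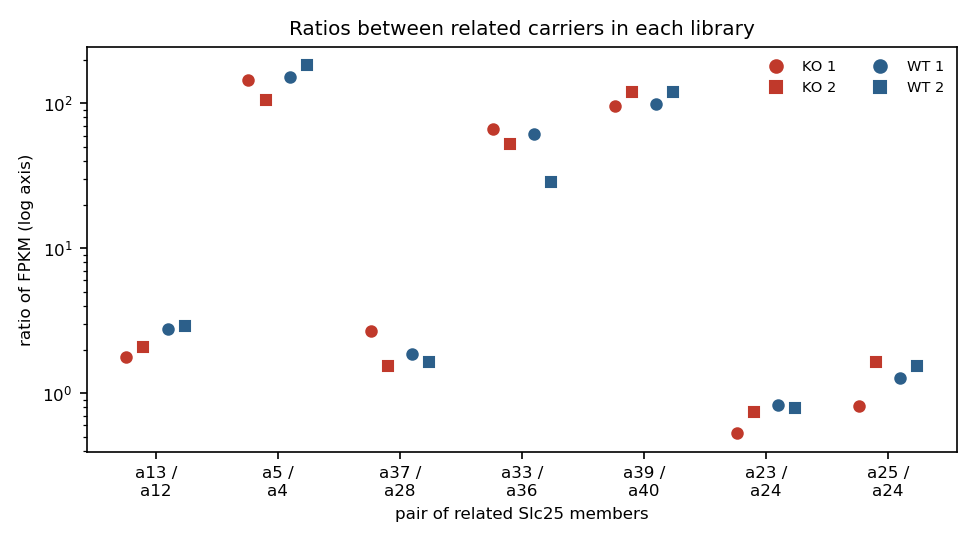
Ratio of FPKM on a log axis for 7 pairs of related carriers in each library, with KO 1 and KO 2 in red left of WT 1 and WT 2 in blue. For Slc25a13 to Slc25a12 the KO ratios of 1.78 and 2.09 lie below the WT ratios of 2.76 and 2.89, while 4 of the 7 pairs overlap.

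Several members are neighbours on the genome (GENCODE M21, build mm10), in 4 pairs at most 50000 bases apart. Slc25a29 (minus strand of chromosome 12, 108825873 to 108835883) and Slc25a47 (plus strand, 108836046 to 108856815) are separated by 162 bases and point away from each other. The part of Slc25a47 near Slc25a29 belongs to non-coding transcripts, and its outermost coding transcript starts 15246 bases from that of Slc25a29, at 108851129. The other pairs are Slc25a41 and Slc25a23, Slc25a54 and Slc25a24, and Slc25a43 and Slc25a5. In each of these the first gene was listed at or near 0 and the other stood at 11.8 FPKM or above.

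Genes that work with these carriers are given by list. Of the enzymes of the urea cycle and its nitrogen supply, 7 of 9 tested were lower in KO. The arginase gene Arg1 stood at 37.3 and 73.5 FPKM in KO 1 and KO 2 and at 93.7 and 167 FPKM in WT 1 and WT 2 (log2 difference -1.24; limma, unadjusted p of 0.0175, adjusted p = 0.586), and Cps1, the carbamoyl phosphate synthetase that opens the cycle, at 201 and 345 FPKM in KO 1 and KO 2 and at 305 and 535 FPKM in WT 1 and WT 2 (-0.61, with overlapping genotypes and an unadjusted p of 0.125). Like Slc25a47 and Slc25a51, both were lowest in KO 1 and highest in WT 2. So was the median of the hepatocyte markers, among which Cps1 is counted, though not every marker was. Arg1 differed by -0.76 without KO 1 and -0.83 without WT 2, and Cps1 by -0.22 and -0.21. The ornithine transcarbamylase gene Otc, named after its values were seen, stood the other way, at 12.3 and 13.6 FPKM in KO 1 and KO 2 and at 10.4 and 8.45 FPKM in WT 1 and WT 2 (log2 difference 0.42; limma, unadjusted p of 0.0239, adjusted p = 0.609). Of the iron-sulfur and heme list, 10 of 15 were lower in KO. Alas1, the enzyme that condenses the glycine imported by Slc25a38, stood at 33.4 and 49.4 FPKM in KO 1 and KO 2 and at 77.7 and 75.2 FPKM in WT 1 and WT 2 (log2 difference -0.90; limma, unadjusted p of 0.00298, adjusted p = 0.518), and Cpox, a later enzyme, differed by 0.24. The signs of Alas1 and Slc25a38 were thus opposite.

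For the counts of these further lists, 5170 of all 10407 genes tested were higher in KO and 5237 were lower. Of other mitochondrial transporters, 6 of 11 tested were higher in KO. Mpc2, a subunit of the mitochondrial pyruvate carrier, stood at 55.9 and 65.5 FPKM in KO 1 and KO 2 and at 78.0 and 98.2 FPKM in WT 1 and WT 2 (log2 difference -0.53; limma, unadjusted p of 0.0122, adjusted p = 0.562), and Abcb8 differed by 0.21. Of the import machinery of carriers, 8 of 12 were higher, led by the channel subunit Timm22 (13.4 and 11.7 FPKM in KO 1 and KO 2, 10.7 and 8.32 FPKM in WT 1 and WT 2; 0.37) and by Agk (0.23). In the carnitine shuttle 4 of 5 were lower, with Crot at 0.34 and Cpt2, the inner-membrane carnitine palmitoyltransferase, at -0.29. Among enzymes of citrate use and the citric acid cycle 5 of 9 were lower, with Idh2 at -0.30 and Acaca at -0.28, and in the malate-aspartate shuttle 3 of 4 were higher, with Mdh2 at 0.20 and Got1 at -0.10. Of the family genes with other names, Ucp2 differed by -0.57 with overlapping genotypes and Mtch1 by 0.05. Several values of these lists were smaller in size with 1 library left out. Without KO 2, Crot differed by 0.01, Cpox by 0.05, Cpt2 by -0.18 and Ucp2 by -0.12. Without WT 2, Timm22 differed by 0.20, Agk by 0.15, Mdh2 by 0.09 and Abcb8 by 0.10. No gene of these lists had an adjusted p under 0.05.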

How the data were processed

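RNA of 2 KO and 2 WT hepatocyte libraries was sequenced from a stranded Illumina TruSeq mRNA preparation, per the labels' protocols. The authors deposited 1 value per gene and library, read here as FPKM from the values and from the submitters' processing notes, which name, without roles, Cufflinks, Cuffdiff 2.2.1, STAR 2.5.0 and the build mm10; no header states the unit. Which annotation and strand setting were counted with is not given in the sources used here, so reads of genes that overlap on opposite strands (such as Slc25a11, Slc25a23, Slc25a25, Slc25a26, Slc25a46 and Slc25a53) may be mixed. Cufflinks shares fragments among transcripts, so whole fragments were not recovered. Depth was estimated from the lowest steps, within a window set beforehand, in genes with 1 transcript, assuming fragments of 200 bases. The window bounds the result, so these depths are rough.

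Of 22079 identifiers, 21984 matched GENCODE M21. log2(FPKM + 1), which understates differences of low genes, was fitted for 10407 genes averaging 1 FPKM or more (limma 3.58.1, R 4.3.3; genotype as only term, trended variance, two-sided, Benjamini-Hochberg over all genes), and the code was tested on simulated data. Values in every library are given for members with an unadjusted p under 0.05, the 8 largest moderated t, the most abundant of each substrate group and related pairs. The values of 1 tested member, counted in the sums, are not reported here. For other lists, the 2 largest differences are named. Members, lists and motifs were chosen with earlier results of these data known. Alternatives were another pseudocount, filters, scalings, variance model, a replicate block and each library left out.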

Additional observations from a re-analysis of the deposited data

How the results depend on the processing

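With each library left out, the count of genes called ran from 0 to 8 (8 without WT 1, 5 without KO 1, none of them a member), the count of members at an unadjusted p under 0.05 from 0 to 5 (3.06% to 11.8% of all genes), the median member difference from 0.01 to 0.03 and the count of members with genotypes apart from 23 to 33 (62.1% to 74.3% of all genes, since more separate when a group has 1 library). Without a filter on low values 2 members were not fitted, and 3 of 45 had an unadjusted p under 0.05 (6.55% of all genes). The 3 were Slc25a34, Slc25a38 and Slc25a13. Slc25a51, Slc25a47 and Slc25a48 then had unadjusted limma p-values of 0.0522, 0.0603 and 0.0846. Rescaled to a common upper quartile, or without a variance trend, the count was 4 (7.17% and 7.01% of all genes). In both, Slc25a13 and Slc25a38 were no longer among them. With a filter at 5 FPKM, 18 were left out and the median difference was 0.01. No member was called under any alternative, where the lowest adjusted p was 0.155. The replicate numbers have no stated meaning: deviations of same-numbered libraries correlated at 0.151, and with them as a replicate block 0 genes were called and 6 members had an unadjusted p under 0.05. Centred on the median, Slc25a16 stood at 0.0043 and Slc25a42 at 0.01. Of 36 members given singly, 19 kept their sign under every alternative. For the others the cause was not tested, and the range with 1 library left out was -0.06 to 0.24 for Slc25a14, -0.19 to 0.29 for Slc25a15, -0.04 to 0.03 for Slc25a16, -0.13 to 0.03 for Slc25a20, -0.15 to 0.01 for Slc25a22, -0.11 to 0.05 for Slc25a23, -0.28 to 0.39 for Slc25a25, -0.06 to 0.40 for Slc25a26, -0.16 to 0.30 for Slc25a27, -0.12 to 0.03 for Slc25a28, -0.0011 to 0.05 for Slc25a3, -0.16 to 0.46 for Slc25a37, -0.04 to 0.25 for Slc25a40, -0.10 to 0.10 for Slc25a42, -0.19 to 0.01 for Slc25a44, -0.06 to 0.08 for Slc25a5 and -0.12 to 0.37 for Slc25a53.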
